A study of Mus musculus with 12 samples.

Results

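The genes described here are 10 genes of the T cell lineage: the coreceptor genes Cd4, Cd8a and Cd8b1, the T cell surface receptor genes Cd5, Cd6 and Cd28, the signalling genes Lat and Themis, and the transcription factor genes Bcl11b and Zbtb16. They were found by Ensembl gene ID, and all 10 were present among the 37991 genes of the expression table. RNA had been sequenced in bulk from natural killer (NK) cells, innate lymphocytes that kill infected or transformed cells, which were sorted as NK1.1 and CD49b positive from the bone marrow of C57Bl/6 mice. Every group carried floxed alleles. The DKO group had Ncr1Cre with floxed Id2 and floxed Tcf7, the Id2KO group had Ncr1Cre with floxed Id2, the Tcf1KO group had Ncr1Cre with floxed Tcf7, and the Ctrl group had floxed alleles and no Cre, so each comparison with Ctrl also holds the presence of Cre. Ncr1Cre is a recombinase made from the gene of the activating receptor NKp46, so it acts only in cells that have switched that gene on. Ages were not given, the sample labels name Id2F/F for the controls while the design text also lists Id2F/F Tcf7F/F, and nothing says whether the 3 independent samples of a group came from separate animals. The p-values below therefore measure the spread between these samples, which may be technical.

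T cells recognise antigen through a receptor whose signal is carried by the CD3 chains. CD4 and CD8 are coreceptors that bind the MHC molecule beside the antigen and bring the kinase LCK to the receptor; CD8 is built from an alpha chain, which can pair with itself, and a beta chain, which needs the alpha chain to reach the surface. CD5 and CD6 are inhibitory receptors that dampen the signal, CD28 adds to it, LAT is the membrane scaffold on which the signalling complex assembles, and THEMIS tunes the signal in thymocytes. BCL11B fixes T cell identity and restrains NK genes in developing T cells, and the protein of Zbtb16, PLZF, drives the innate programme of NKT cells and of innate lymphoid precursors. ID2 blocks E proteins, transcription factors that bind the DNA word CANNTG and promote T and B cell development, while TCF-1, the product of Tcf7, is a T lineage factor that binds words such as CTTTGA. NK cells use LAT too, and CD8 alpha, CD28 and BCL11B are also known from some innate lymphocytes.

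Levels are in FPKM (sequenced fragments relative to the length of the gene and the size of the library), from libraries of 13977524 to 20209587 reads. The 5 genes with the most reads took 26.2% to 35.1% of each library. Id2 had 36.8 to 48.8 FPKM in DKO libraries, 17.1 to 19.2 in Id2KO libraries, 102 to 126 in Tcf1KO libraries and 124 to 170 in Ctrl libraries, so it was low where it was targeted. It was not equally low, as every DKO library was above every Id2KO library. The difference was 1.18 on the log2(FPKM + 1) scale (limma, adjusted p = 0.0205), and its cause was not tested. Tcf7 had 53.9 to 73.3 FPKM in DKO libraries, 80.9 to 92.1 in Id2KO libraries, 29.6 to 38.0 in Tcf1KO libraries and 37.7 to 46.5 in Ctrl libraries. The DKO libraries were thus all above the Ctrl libraries, and the Tcf1KO and Ctrl ranges overlapped. Gene totals of Tcf7 check neither the Tcf1KO label nor the targeting of Tcf7 in DKO, since no exon was examined. NK cell markers were high in all 12 libraries, with summed levels of 3262 to 4553 FPKM in DKO, 3192 to 4443 in Id2KO, 3394 to 3769 in Tcf1KO and 4541 to 5014 FPKM in Ctrl libraries. Cd3e, the gene of a CD3 chain, was present in every library too, at 85.8 to 419 FPKM, beside markers of myeloid and red blood cells whose levels are given below. Which cells the Cd3e RNA came from was not tested. Id2KO replicate 3, DKO replicate 3 and Ctrl replicate 2 stood furthest from their groups, with array weights of 0.554, 0.586 and 0.590, and no 2 libraries held identical values.

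Cd8a had the clearest pattern of the coreceptors. Its gene (ENSMUSG00000053977) lies on chromosome 6, plus strand, at positions 71373427 to 71379173 of GRCm38 (mm10), 35933 bases from Cd8b1 (ENSMUSG00000053044) at 71322788 to 71337494 on the same strand; Cd4 (ENSMUSG00000023274) lies apart on the same chromosome, minus strand, at 124864692 to 124888221. Of the 10 genes, 5 had an entry in the RefSeq promoter table for GRCm38.p6. The windows of Cd8a, Cd5 and Bcl11b are shown because these were the genes whose level differed with the smallest p-values in the comparison over Tcf7 given further on, and because the words bound by E proteins, which ID2 blocks, and by TCF-1 were searched in them. Each runs 5′ to 3′ on the gene's own strand from 250 bases before the annotated start to 50 after it, with the words CANNTG and CTTTGA, searched on both strands, in capitals.
Cd8a, chr6:71373177-71373476, plus strand: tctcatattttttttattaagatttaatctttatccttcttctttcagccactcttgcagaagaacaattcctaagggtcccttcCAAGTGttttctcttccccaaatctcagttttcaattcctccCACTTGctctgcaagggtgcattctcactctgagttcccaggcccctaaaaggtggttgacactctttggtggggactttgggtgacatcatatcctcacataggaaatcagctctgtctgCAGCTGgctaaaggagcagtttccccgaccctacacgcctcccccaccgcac
Cd5, chr19:10738925-10739224, minus strand: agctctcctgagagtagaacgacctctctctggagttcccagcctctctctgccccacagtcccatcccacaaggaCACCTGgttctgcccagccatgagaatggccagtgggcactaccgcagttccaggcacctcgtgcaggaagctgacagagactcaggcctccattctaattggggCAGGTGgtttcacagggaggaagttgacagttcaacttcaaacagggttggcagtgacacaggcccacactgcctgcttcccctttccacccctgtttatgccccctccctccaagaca
Bcl11b, chr12:108003365-108003664, minus strand: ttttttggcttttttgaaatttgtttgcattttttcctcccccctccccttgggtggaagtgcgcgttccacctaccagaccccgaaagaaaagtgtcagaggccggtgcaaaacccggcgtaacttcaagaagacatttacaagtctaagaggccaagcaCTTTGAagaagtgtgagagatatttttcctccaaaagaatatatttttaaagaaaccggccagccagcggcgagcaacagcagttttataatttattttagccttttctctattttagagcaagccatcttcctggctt
The Cd8a window held 3 CANNTG words (starting at bases 86, 128 and 249 of the window) and the Cd5 window held 2 (at bases 77 and 182). Neither held CTTTGA. The Bcl11b window held 1 CTTTGA, at base 162, and no CANNTG. Among all 32851 promoter windows of this length, 72.3% held CANNTG and 16.0% held CTTTGA. No CTTTGA overlapped a CANNTG in these windows, and a match describes the letters only.

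The level of Cd8a was 13.8, 8.32 and 11.4 FPKM in the DKO libraries, 1.06, 2.14 and 6.87 in the Id2KO libraries, 6.61, 13.6 and 15.0 in the Tcf1KO libraries and 2.94, 3.54 and 1.86 FPKM in the Ctrl libraries. Every library in which Tcf7 was targeted was above every Ctrl library, and 1 Id2KO library, replicate 3, reached the range of the Tcf1KO group. In DKO cells the mean was 11.2 ± 2.74 FPKM, against 3.36 ± 3.09 in Id2KO cells, and in Tcf1KO cells it was 11.7 ± 4.50, against 2.78 ± 0.851 in Ctrl cells (SD, n = 3 each). On the log2(FPKM + 1) scale, where a pseudocount of 1 understates the change of low genes, Cd8a differed by 1.69 ± 0.45 (SE) for DKO against Id2KO (limma, adjusted p = 0.199), by 1.71 ± 0.45 for Tcf1KO against Ctrl (adjusted p = 0.516) and by 1.69 ± 0.45 for DKO against Ctrl (adjusted p = 0.228). None of these passed the threshold of 0.05 after Benjamini-Hochberg adjustment over the 12384 genes tested. In bulk RNA, fewer cells that express a gene and less RNA in each cell cannot be told apart.

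Cd8b1, the beta chain, rested on few reads. It had 3.11, 5.09 and 2.77 FPKM in DKO libraries, 0.942, 0.199 and 1.05 in Id2KO libraries, 1.10, 3.91 and 7.68 in Tcf1KO libraries and 0.0870, 2.47 and 0.432 FPKM in Ctrl libraries, from 56 to 114 reads in DKO, 4 to 26 in Id2KO, 22 to 220 in Tcf1KO and 2 to 49 in Ctrl. Cd8b1 reached 1 FPKM in 8 libraries, only 2 of them outside the DKO and Tcf1KO groups, so it passed the filter (1 FPKM or more in at least 3 libraries) through the groups in which it was high, and its differences give no independent support. All DKO libraries were above all Id2KO and all Ctrl libraries, while the Tcf1KO libraries overlapped the Ctrl range and reached beyond it. Cd8b1 differed by 1.43 ± 0.53 on the log2(FPKM + 1) scale for DKO against Id2KO (limma, adjusted p = 0.360), by 1.35 ± 0.53 for Tcf1KO against Ctrl (adjusted p = 0.977) and by 1.38 ± 0.53 for DKO against Ctrl (adjusted p = 0.461). Within a library the level of Cd8b1 was 22.6% to 61.2% of that of Cd8a in DKO, 9.30% to 88.8% in Id2KO, 16.7% to 51.1% in Tcf1KO and 2.96% to 69.9% in Ctrl, so the groups overlapped in this ratio. With exon lengths from GENCODE M21 in place of the lengths that the deposited FPKM imply, the whole range over 12 libraries was 1.65% to 49.6%.

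Cd4 did not follow Cd8a. Its level was 3.70, 3.72 and 1.67 FPKM in DKO libraries, 2.29, 0.986 and 3.98 in Id2KO libraries, 3.96, 4.997 and 1.19 in Tcf1KO libraries and 3.50, 2.60 and 1.36 FPKM in Ctrl libraries, from 110 to 730 reads. Each group held high and low libraries, and all groups overlapped. The library with the highest Cd8a, Tcf1KO replicate 3, had the second lowest Cd4 of the 12. The 95% intervals of the difference on the log2(FPKM + 1) scale were -0.78 to 1.20 for DKO against Ctrl, -0.70 to 1.28 for DKO against Id2KO, -1.07 to 0.91 for Id2KO against Ctrl and -0.73 to 1.24 for Tcf1KO against Ctrl. The first, the second and the fourth of these end below the fitted differences of Cd8a and Cd8b1 in the same comparison. They overlap the intervals of both genes, which for DKO against Ctrl were 0.69 to 2.69 for Cd8a and 0.20 to 2.55 for Cd8b1. The difference between the genes was not tested. The level of Cd8a was 224% to 687% of that of Cd4 in DKO libraries, 46.4% to 217% in Id2KO libraries, 167% to 1264% in Tcf1KO libraries and 84.1% to 136% in Ctrl libraries. Every DKO library and every Tcf1KO library was above every Ctrl library in this ratio, by either set of gene lengths; with the GENCODE M21 lengths the DKO range was 196% to 603%, the Tcf1KO range 147% to 1110% and the Ctrl range 73.8% to 120%.

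**Figure D1:**
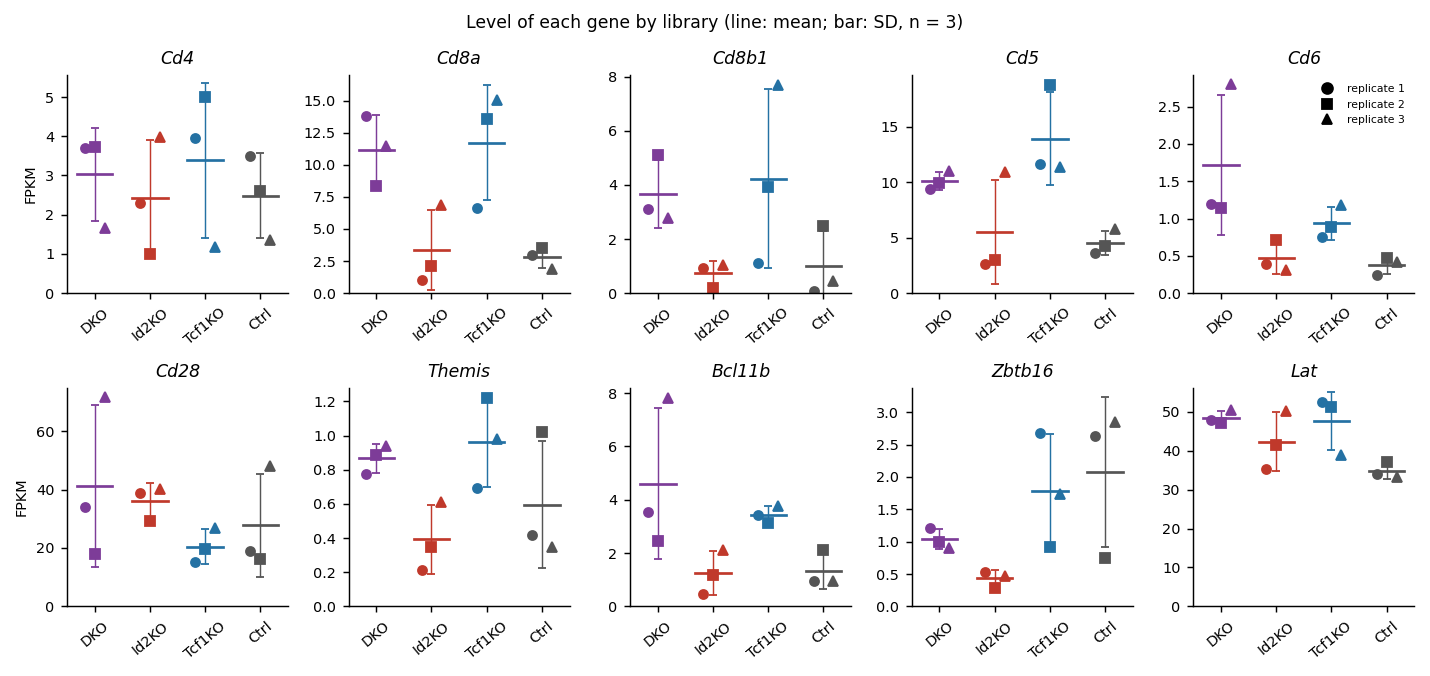
Level of each of the 10 genes in FPKM (y axis, linear, from 0, a separate scale for each gene) in the 12 libraries, by group on the x axis; points are libraries, lines are means and bars are SD (n = 3), cut at 0 where the mean minus the SD is negative. Cd8a lies between 8.32 and 13.8 FPKM in DKO and between 1.86 and 3.54 FPKM in Ctrl, while the 4 groups overlap for Cd4. For Cd28 the DKO and Ctrl ranges overlap, and the Id2KO libraries all lie above the Tcf1KO libraries.

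Cd5 and Cd6 are neighbours on chromosome 19, both on the minus strand, Cd5 (ENSMUSG00000024669) at 10717116 to 10739002 and Cd6 (ENSMUSG00000024670) at 10789341 to 10830058 of GRCm38, 50339 bases apart. Cd5 had 9.43, 9.95 and 11.01 FPKM in DKO libraries, 2.65, 2.96 and 10.97 in Id2KO libraries, 11.7, 18.8 and 11.4 in Tcf1KO libraries and 3.64, 4.25 and 5.75 FPKM in Ctrl libraries. All DKO and Tcf1KO libraries were above all Ctrl libraries, the DKO libraries were all below the Tcf1KO ones, and Id2KO replicate 3 stood with the DKO group while the other 2 Id2KO libraries were the lowest of the 12. Cd5 differed by 1.41 ± 0.39 on the log2(FPKM + 1) scale for Tcf1KO against Ctrl (limma, adjusted p = 0.587), by 1.02 ± 0.39 for DKO against Ctrl (adjusted p = 0.455) and by 0.995 ± 0.39 for DKO against Id2KO (adjusted p = 0.389). For DKO against Tcf1KO the interval was -1.26 to 0.47.

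Cd6 had low levels in all groups, at 1.19, 1.15 and 2.80 FPKM in DKO libraries, 0.388, 0.714 and 0.308 in Id2KO libraries, 0.750, 0.882 and 1.18 in Tcf1KO libraries and 0.239, 0.477 and 0.414 FPKM in Ctrl libraries. Those libraries held 217 to 485, 65 to 123, 128 to 290 and 47 to 82 reads of Cd6 in the same order of groups. The DKO and Tcf1KO libraries were all above the Ctrl and Id2KO libraries. Cd6 reached 1 FPKM in 4 libraries, all of them DKO or Tcf1KO, so it too passed the filter only through the groups in which it was high, and its differences give no independent support. They were 0.93 ± 0.26 for DKO against Ctrl (limma, adjusted p = 0.267), 0.84 ± 0.26 for DKO against Id2KO (adjusted p = 0.262) and 0.49 ± 0.26 for Tcf1KO against Ctrl (adjusted p = 0.999), on the log2(FPKM + 1) scale.

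Cd28 (ENSMUSG00000026012), on chromosome 1, plus strand, at 60716800 to 60773359, was far above the filter in every library and did not follow the pattern of Cd8a. It had 34.2, 17.8 and 71.7 FPKM in DKO libraries, 38.8, 29.2 and 40.3 in Id2KO libraries, 15.1, 19.7 and 26.7 in Tcf1KO libraries and 19.0, 16.2 and 48.0 FPKM in Ctrl libraries, from 1438 to 6945 reads. The highest levels came from DKO replicate 3 and Ctrl replicate 3, and the DKO and Ctrl ranges overlapped. The Id2KO libraries were all above the Tcf1KO libraries, a pair that was not tested. The intervals were -0.57 to 1.58 for DKO against Ctrl, -0.55 to 1.59 for Id2KO against Ctrl, -1.36 to 0.78 for Tcf1KO against Ctrl and -1.08 to 1.06 for DKO against Id2KO, on the log2(FPKM + 1) scale. With the 3 libraries of lowest weight left out (DKO replicate 3, Id2KO replicate 3 and Ctrl replicate 2), the difference between DKO and Ctrl was -0.28 in place of 0.50, so its sign rested on those libraries.

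Lat (ENSMUSG00000030742), on chromosome 7, minus strand, at 126363824 to 126369570, varied within a narrow range. It had 47.9, 47.2 and 50.3 FPKM in DKO libraries, 35.4, 41.4 and 50.2 in Id2KO libraries, 52.5, 51.0 and 38.9 in Tcf1KO libraries and 34.0, 37.1 and 33.1 FPKM in Ctrl libraries. The DKO and Tcf1KO libraries were all above the Ctrl libraries, by a smaller margin than for Cd8a. The difference was 0.47 ± 0.16 for DKO against Ctrl (limma, adjusted p = 0.371) and 0.43 ± 0.16 for Tcf1KO against Ctrl (adjusted p = 0.928). Mir7058 lies within Lat on the same strand, and whether reads were counted by strand is not given in the sources used here.

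Themis (ENSMUSG00000049109), on chromosome 10, plus strand, at 28668360 to 28883818, had 0.774, 0.888 and 0.937 FPKM in DKO libraries, 0.216, 0.348 and 0.614 in Id2KO libraries, 0.696, 1.22 and 0.978 in Tcf1KO libraries and 0.420, 1.02 and 0.349 FPKM in Ctrl libraries. The DKO and Tcf1KO libraries were all above the Id2KO libraries, while Ctrl libraries lay in both ranges. Themis reached 1 FPKM in 2 libraries and did not pass the filter. In a fit with no filter it differed by 0.43 ± 0.20 for DKO against Id2KO (limma, adjusted p = 0.642). It overlaps Gm47834 and 4930519F09Rik on the opposite strand, so its reads could hold theirs.

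Bcl11b (ENSMUSG00000048251), on chromosome 12, minus strand, at 107910403 to 108003602, had 3.52, 2.46 and 7.83 FPKM in DKO libraries, 0.478, 1.17 and 2.11 in Id2KO libraries, 3.45, 3.11 and 3.75 in Tcf1KO libraries and 0.949, 2.101 and 0.956 FPKM in Ctrl libraries, from 92 to 1509 reads. All 6 libraries of the DKO and Tcf1KO groups were above all 6 of the Id2KO and Ctrl groups. The mean was 4.60 ± 2.84 FPKM in DKO cells, against 1.25 ± 0.818 in Id2KO cells, and 3.44 ± 0.321 in Tcf1KO cells, against 1.34 ± 0.663 in Ctrl cells (SD, n = 3 each). The differences were 1.26 ± 0.37 for DKO against Id2KO (limma, adjusted p = 0.230), 1.18 ± 0.37 for DKO against Ctrl (adjusted p = 0.324) and 0.96 ± 0.37 for Tcf1KO against Ctrl (adjusted p = 0.977) on the log2(FPKM + 1) scale.

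Zbtb16 (ENSMUSG00000066687), on chromosome 9, minus strand, at 48654297 to 48836222, had a pattern of its own. It had 1.20, 0.994 and 0.907 FPKM in DKO libraries, 0.538, 0.290 and 0.473 in Id2KO libraries, 2.68, 0.918 and 1.74 in Tcf1KO libraries and 2.63, 0.743 and 2.85 FPKM in Ctrl libraries, from 21 to 237 reads. The Id2KO libraries were below all 9 others, and the Ctrl group spread from a library close to the Id2KO range to the highest of the 12. Zbtb16 differed by -1.02 ± 0.33 on the log2(FPKM + 1) scale for Id2KO against Ctrl, at an unadjusted p of 0.0100 and an adjusted p of 0.310 (limma). It reached 1 FPKM in 5 libraries, none of them Id2KO, so it passed the filter through the other groups. Against Ctrl, DKO cells differed by -0.51 ± 0.33 (adjusted p = 0.686), and against Id2KO they differed by 0.51 ± 0.33 (adjusted p = 0.611).

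**Figure D2:**
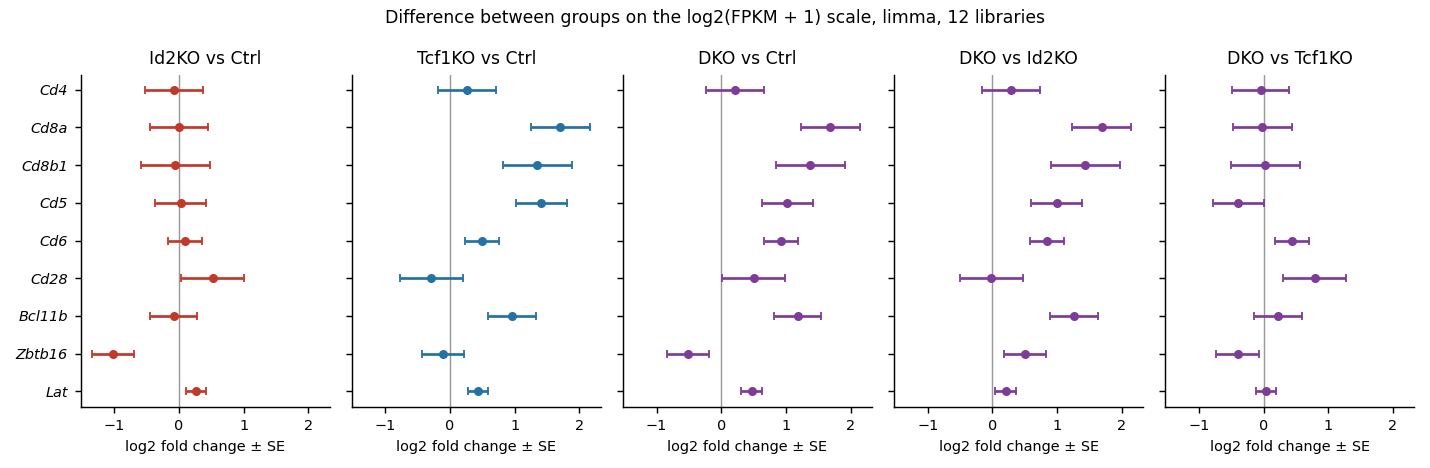
Log2 fold change ± SE on the log2(FPKM + 1) scale (x axis) of the 9 genes that passed the filter (y axis), from 1 limma fit to 12 libraries, in 5 comparisons. Cd8a lies at 1.71 for Tcf1KO against Ctrl, 1.69 for DKO against Ctrl and 1.69 for DKO against Id2KO, and Zbtb16 lies at -1.02 for Id2KO against Ctrl; none of the values passed the adjusted threshold.

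Counted over the comparisons, 0 of the 10 genes passed limma's adjusted threshold in any of the 6 comparisons of the design. For Tcf1KO against Ctrl, 0.0% of all genes tested passed it, and 5 of the 10 had an unadjusted p under 0.05, against 4.8% of all genes. Without overlap between the 2 groups, 5 of the 10 were higher in Tcf1KO (Cd8a, Cd5, Cd6, Bcl11b and Lat), against 4.96% of all genes, and 0 were lower, against 5.73%. For DKO against Ctrl, 0.145% of genes passed, 6 of the 10 had an unadjusted p under 0.05 against 9.44%, and 6 were higher without overlap (Cd8a, Cd8b1, Cd5, Cd6, Bcl11b and Lat) against 6.28%, with 0 lower against 7.27%. For DKO against Id2KO, 0.121% passed, 5 of the 10 had an unadjusted p under 0.05 against 10.9%, and 6 were higher without overlap (Cd8a, Cd8b1, Cd6, Themis, Bcl11b and Zbtb16) against 6.34%, with 0 lower against 8.32%. These comparisons share the DKO and Ctrl libraries, so their counts are not separate evidence. The median log2 difference over all 10 genes was 0.46 for Tcf1KO against Ctrl, 0.72 for DKO against Ctrl and 0.67 for DKO against Id2KO, where the medians of all genes tested were -0.0016, -0.0090 and -0.0035. Themis did not pass the filter, so the shares of all genes, which were taken over genes tested, do not cover it. Zbtb16 reached 1 FPKM in no Id2KO library, so it passed through the other groups, in which it was higher. The genes were not drawn blindly, and Cd6 and Cd8b1 also passed the filter through the groups in which they were high. These counts and medians therefore describe the 10 genes only and support nothing.

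The other comparisons gave less. For Id2KO against Ctrl, 0.178% of all genes passed the adjusted threshold, and Zbtb16 alone of the 10 had an unadjusted p under 0.05, against 9.71% of all genes. It was the only one without overlap, lower in Id2KO, where 6.75% of all genes were lower and 7.11% higher without overlap. The median over the 10 was -0.031, against -0.0079 over all genes tested. For DKO against Tcf1KO, 0.0565% of all genes passed, none of the 10 had an unadjusted p under 0.05 (6.73% of all genes), and Cd5 alone did not overlap, lower in DKO, against 6.9% of genes, and 0 were higher, against 5.74%. For the interaction, which asks whether targeting Id2 made a different change with Tcf7 targeted (DKO minus Tcf1KO) than without it (Id2KO minus Ctrl), 0.0% of genes passed and none of the 10 had an unadjusted p under 0.05, against 5.94%. The interval of the interaction for Cd8a was -1.43 to 1.39 and that for Cd5 was -1.64 to 0.81. The voom alternative of limma on reads recovered from the FPKM also called 0 of the 10 genes in each of these 6 comparisons, where it called 0.266% of all genes for Id2KO against Ctrl, 0.0161% for Tcf1KO against Ctrl, 0.105% for DKO against Ctrl, 0.0888% for DKO against Id2KO, 0.0161% for DKO against Tcf1KO and 0.0% for the interaction. Without the 3 libraries of lowest weight limma likewise called 0 of the 10 in these 6 comparisons.

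A single library decided the count for DKO against Id2KO. Without Id2KO replicate 3, in which Cd8a and Cd5 were higher than in the other Id2KO libraries, Cd5 differed by 1.55 on the log2(FPKM + 1) scale (limma, adjusted p = 0.0436) and Cd8a by 2.23 (adjusted p = 0.0477), so that 2 of the 10 genes were called and 31 genes of all tested (0.25%) in place of 15. Across all alternatives the adjusted p of Cd8a in this comparison ranged from 0.0477 to 0.468, and that of Cd5 from 0.0436 to 0.710. Id2KO replicate 3 also had more RNA of other lineages: neutrophil and monocyte markers summed to 1026 FPKM there, against 60.1 and 188 FPKM in the other Id2KO libraries, and erythroid markers to 1838 FPKM, against 87.5 and 198. Its Cd3e was 218 FPKM, against 85.8 and 111. The part of these in the result was not tested.

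A comparison chosen after the values were seen averaged DKO minus Id2KO and Tcf1KO minus Ctrl, and so set the 6 libraries in which Tcf7 was targeted against the 6 in which it was not. Ctrl had no Cre, so this average also holds the presence of Cre. Of all genes, 46 (0.371%) passed limma's adjusted threshold, and 0 of the 10 did. Cd8a differed by 1.70 ± 0.32 on the log2(FPKM + 1) scale (adjusted p = 0.0586), Cd5 by 1.20 ± 0.28 (adjusted p = 0.147), Bcl11b by 1.11 ± 0.26 (adjusted p = 0.148), Cd8b1 by 1.39 ± 0.38 (adjusted p = 0.208), Cd6 by 0.67 ± 0.19 (adjusted p = 0.232) and Lat by 0.32 ± 0.11 (adjusted p = 0.365). These 6 had an unadjusted p under 0.05, against 9.74% of all genes, and Cd6 and Bcl11b did not overlap, against 0.525% of genes that were higher without overlap and 0.355% that were lower. The comparison was picked from these values, and Cd6 and Cd8b1 passed the filter through groups on its targeted side. These counts therefore describe the 10 genes only and support nothing. Cd8a was called by voom (adjusted p = 0.0209; 0.404% of all genes), by limma with array weights (adjusted p = 0.0250; 0.719%) and without Id2KO replicate 3 (adjusted p = 0.00972; 0.557%). Cd5 was also called by limma with array weights (adjusted p = 0.0380) and without Id2KO replicate 3 (adjusted p = 0.00499). Without the 3 libraries of lowest weight 3 of the 10 were called, Cd8a (adjusted p = 0.0404), Cd5 (adjusted p = 0.0327) and Bcl11b (adjusted p = 0.0496), where 49 genes of all tested (0.396%) were called. Over all alternatives the adjusted p of Cd8a ranged from 0.00972 to 0.160. The mirrored average over Id2 includes Ctrl and holds the presence of Cre as well. In this average over Id2, only Zbtb16 had an unadjusted p under 0.05, with -0.71 ± 0.23 (adjusted p = 0.286), where 10.9% of all genes did and 0.299% passed the adjusted threshold. None of the 10 was called by voom there (0.573% of all genes), and all 10 overlapped, where 0.525% of genes were higher and 0.371% lower without overlap.

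Several of the 10 genes moved together across the 12 libraries, and Cd8a did so most with Cd3e. As a description only, over 12 points that share the groups, Pearson's r on log2(FPKM + 1) was 0.89 between Cd8a and Cd5, 0.87 between Cd8a and Bcl11b, 0.79 between Cd8a and Cd8b1, and 0.85 between Cd6 and Bcl11b. After group means were taken out these were 0.69, 0.59, 0.42 and 0.64. Cd4 had an r of 0.33 with Cd8a and Cd28 one of -0.050. Of all genes tested, those most like Cd8a were Cd3e (0.96, and 0.87 within groups) and Trgv2 (0.95), a gamma variable segment; for Cd5 they were Ikzf2 (0.93), a transcription factor of regulatory T cells and of NK cells, and Trac (0.91), the constant part of the alpha receptor chain. Those most like Bcl11b were Ly6c2 (0.93) and Abcb1a (0.93), those most like Cd6 Kdm5b (0.91) and Pde7a (0.91), and those most like Cd8b1 Galm (0.86) and Sh3bp5 (0.86). For Lat they were the receptor segments Trav8d-2 (0.87) and Traj12 (0.86), for Cd4 Rnf150 (0.91) and Gpx3 (0.91), for Cd28 Irs2 (0.94) and Zfp148 (0.92), and for Zbtb16 Emp3 (0.94) and Fry (0.92).

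**Figure D3:**
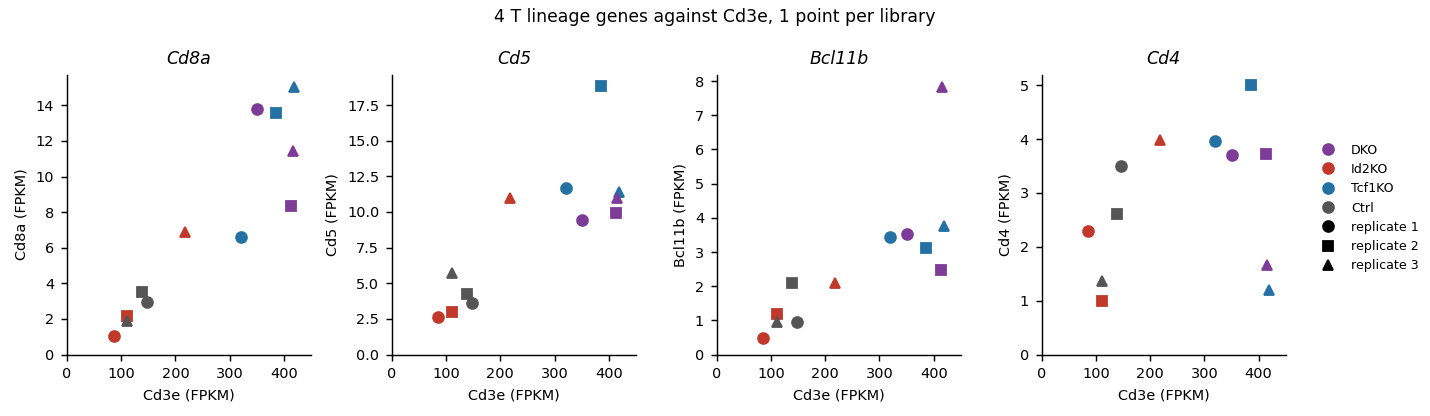
Level of Cd8a, Cd5, Bcl11b and Cd4 (y axes, FPKM) against that of Cd3e (x axis, FPKM), 1 point per library, with color for the group and shape for the replicate. Libraries of the DKO and Tcf1KO groups lie at 320 FPKM of Cd3e or more, and Cd4 in Tcf1KO replicate 3 is 1.19 FPKM at a Cd3e level of 419.

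The levels were also set against that of Cd3e within each library, as ratios. Cd3e itself had 351, 414 and 416 FPKM in DKO libraries, 85.8, 111 and 218 in Id2KO libraries, 320, 386 and 419 in Tcf1KO libraries and 147, 139 and 111 FPKM in Ctrl libraries, and differed by 1.55 ± 0.20 in the comparison over Tcf7 (limma, adjusted p = 0.0162). Cd8a was 2.01% to 3.93% of Cd3e in DKO, 1.24% to 3.15% in Id2KO, 2.06% to 3.59% in Tcf1KO and 1.67% to 2.55% in Ctrl, so the groups overlapped. Cd5 was 2.41% to 2.69% in DKO, 2.67% to 5.02% in Id2KO, 2.72% to 4.88% in Tcf1KO and 2.47% to 5.16% in Ctrl. The ratio for Cd4 was 0.401% to 1.05% in DKO libraries, all below the 1.22% to 2.38% of Ctrl libraries, with 0.890% to 2.67% in Id2KO and 0.284% to 1.30% in Tcf1KO. That for Cd28 was 4.30% to 17.2% in DKO, 18.5% to 45.2% in Id2KO, 4.70% to 6.38% in Tcf1KO and 11.7% to 43.1% in Ctrl, and the Tcf1KO libraries were all below the Ctrl libraries. These ratios depend on the gene lengths. With GENCODE M21 lengths Cd8a was 9.79% to 19.1% of Cd3e in DKO, 6.02% to 15.3% in Id2KO, 10.05% to 17.5% in Tcf1KO and 8.13% to 12.4% in Ctrl. Cd5 was then 2.87% to 3.21%, 3.19% to 5.99%, 3.24% to 5.83% and 2.95% to 6.16% in the same order of groups. Cd4 was 2.22% to 5.84%, 4.93% to 14.8%, 1.57% to 7.18% and 6.79% to 13.2%, and Cd28 was 13.6% to 54.4%, 58.2% to 142%, 14.8% to 20.1% and 36.8% to 136%. The order of the libraries within a ratio does not depend on the lengths. No test was made of these ratios.

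With the libraries ranked for each gene (1 for the highest of the 12), Tcf1KO replicate 2 had the mean rank nearest the top, 3.6, with 6 genes among its top 3 ranks, and DKO replicate 3 followed with 4 (4 genes, among them the highest Cd6, Cd28 and Bcl11b). Nearest the bottom were Id2KO replicate 1 with a mean rank of 9.9 and 7 genes among the lowest 3, Id2KO replicate 2 with 9.6 and Ctrl replicate 1 with 9.2. Id2KO replicate 3 stood at 6.5, and the other Ctrl libraries at 7.7 and 8.3. The 6 DKO and Tcf1KO libraries had mean ranks of 3.6 to 5.4, above the other 6.

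Other T lineage genes put these levels in context. The 7 genes of the CD3 chains and receptor constant parts summed to 1827 to 2246 FPKM in DKO, 1295 to 1757 in Id2KO, 1398 to 1869 in Tcf1KO and 976 to 1151 FPKM in Ctrl. Among them Cd3d rose in Id2KO against Ctrl (61.5 to 103 FPKM against 26.6 to 29.8; log2 difference 1.39, limma, adjusted p = 0.0183), and in the comparison over Tcf7 Cd3e rose and so did Trac, with 447 to 499 FPKM in DKO, 143 to 320 in Id2KO, 338 to 498 in Tcf1KO and 141 to 194 in Ctrl (1.23, adjusted p = 0.0255). Cd3g, Cd247, Trbc1 and Trbc2 made up the rest of the list, in which no gene was called in the other comparisons. The list did not rise as a whole over Tcf7. Trbc1 differed by -0.45 (limma, adjusted p = 0.319) and Cd247 by -0.022 (adjusted p = 0.978). Cd3g differed by 0.69 (adjusted p = 0.134), Trbc2 by 0.54 (adjusted p = 0.178) and Cd3d by 0.34 (adjusted p = 0.458). Trbc1 had 445 to 522 FPKM in DKO, 512 to 874 in Id2KO, 246 to 316 in Tcf1KO and 318 to 447 in Ctrl. Of 20 genes of T cell receptor signalling, 19 were tested and none was called in any comparison; their median difference was 0.14 for DKO against Ctrl and -0.024 for Tcf1KO against Ctrl. Of 10 costimulation genes, 9 were tested, and Cd226, an activating receptor of T and NK cells, rose in DKO against Id2KO (26.8 to 31.4 FPKM against 10.5 to 12.9; 1.25, adjusted p = 0.0205) and in the comparison over Tcf7 (0.94, adjusted p = 0.0162). Of 12 transcription factors of the T lineage, Tcf7 rose in Id2KO against Ctrl (1.04, adjusted p = 0.0279) and in the average over Id2 (0.93, adjusted p = 0.00775), and Myb, a factor of progenitors, fell by 0.83 over Tcf7 (adjusted p = 0.0255). Of 9 early thymocyte genes, 3 were tested and none was called, and Ptcra, the pre-receptor alpha chain, was listed at 0 in all 12 libraries.

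Markers of NKT and gamma delta T cells did not share 1 pattern. Of 12 NKT genes, 10 were found, 6 were tested and none was called. Their summed level was 40.8 to 70.6 FPKM in DKO, 72.7 to 91.5 in Id2KO, 68.0 to 85.7 in Tcf1KO and 43.9 to 72.6 FPKM in Ctrl, so the DKO and Ctrl ranges overlapped. The Id2KO sums were all above the DKO and Ctrl sums, by a narrow margin over the highest Ctrl library. Traj18, the joining segment of the invariant NKT receptor, had 12.1 to 25.0 FPKM in DKO, 11.7 to 51.4 in Id2KO, 28.0 to 43.2 in Tcf1KO and 8.41 to 24.9 FPKM in Ctrl. Traj18 was higher in every Tcf1KO library than in every DKO and every Ctrl library, while the Id2KO range overlapped all of them. These Traj18 levels rested on only 9 to 59 reads in a library. The 8 gamma delta genes found of 9 summed to 464 to 530 FPKM in DKO, 186 to 345 in Id2KO, 413 to 500 in Tcf1KO and 160 to 246 FPKM in Ctrl, with 5 tested. Tcrg-C4, a gamma constant part, rose in the comparison over Tcf7 (1.21, adjusted p = 0.0385), while Cd163l1, which gamma delta T cells use as a scavenger receptor, rose in Id2KO against Ctrl (2.40, adjusted p = 0.00217) and in the average over Id2 (1.87, adjusted p = 0.00146). Of 10 innate lymphoid genes, 6 were tested; over Tcf7, Ikzf2 rose by 1.16 (adjusted p = 0.0208) and Kit fell by 0.96 (adjusted p = 0.0385). Of the 13 NK genes, Ncr1, the gene of NKp46 that also drives the Cre, fell by 1.10 over Tcf7 (adjusted p = 0.0208), with 62.4 to 99.1 FPKM in DKO, 85.8 to 148 in Id2KO, 60.3 to 70.4 in Tcf1KO and 168 to 204 in Ctrl, and Eomes, a factor of mature NK cells, fell by 0.69 (adjusted p = 0.0454). The average over Tcf7 also holds the presence of Cre. In DKO against Id2KO, where both groups carried Cre, Ncr1 differed by -0.65 (limma, adjusted p = 0.311).

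Markers of cells outside the NK and T lineages moved with libraries as well as groups. The 11 neutrophil and monocyte genes summed to 321 to 779 FPKM in DKO, 60.1 to 1026 in Id2KO, 1183 to 4187 in Tcf1KO and 880 to 3586 FPKM in Ctrl, and the 9 erythroid genes to 420 to 2619, 87.5 to 1838, 1291 to 3364 and 691 to 4617 FPKM in the same order. The 8 basophil and mast cell genes summed to 56.7 to 593 FPKM in DKO, 15.6 to 94.7 in Id2KO, 51.1 to 752 in Tcf1KO and 167 to 631 FPKM in Ctrl, and the 8 platelet genes to 17.1 to 44.0, 0.923 to 29.8, 11.05 to 112 and 15.7 to 292 FPKM. No gene of these 4 lists was called in any comparison. In Tcf1KO against Ctrl the fitted difference was above 0 for 8 of the 11 neutrophil and monocyte genes and for 9 of the 9 erythroid genes, and in DKO against Id2KO and in the average over Tcf7 it was above 0 for 11 of 11 and 9 of 9. In DKO against Ctrl it was above 0 for 0 of 11 and 0 of 9. The 10 genes of plasmacytoid dendritic cells summed to 34.5 to 58.8 FPKM in DKO, 54.9 to 78.3 in Id2KO, 37.7 to 53.1 in Tcf1KO and 34.2 to 64.3 in Ctrl, with the defining gene Siglech at 0.577 FPKM or less; Cox6a2 of this list rose in the average over Id2 (1.91, adjusted p = 0.0260). The 9 genes of conventional dendritic cells summed to 28.8 to 94.8 FPKM over the 12 libraries, with Clec9a at 0.118 FPKM or less. The 9 B cell genes summed to 253 to 284 FPKM in DKO, 353 to 414 in Id2KO, 154 to 209 in Tcf1KO and 165 to 250 FPKM in Ctrl, and Ighm, the immunoglobulin mu chain, rose in the average over Id2 (0.83, adjusted p = 0.0260). The part of any of these cells in the levels of the 10 genes was not tested.

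**Figure D4:**
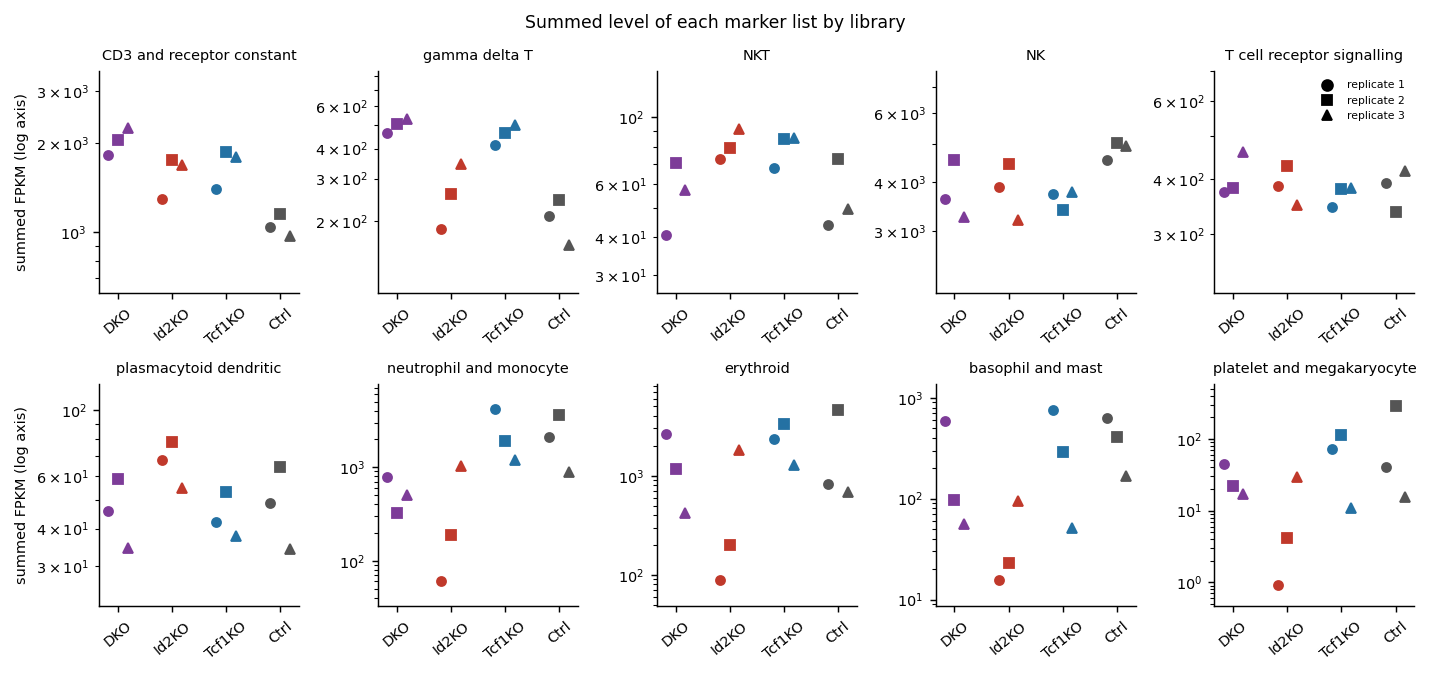
Summed FPKM (y axis, log) of 10 marker lists in the 12 libraries, by group on the x axis, with shape for the replicate. The CD3 and receptor constant genes lie at 1827 to 2246 FPKM in DKO and 976 to 1151 in Ctrl, and the neutrophil and monocyte genes at 60.1 to 1026 in Id2KO and 880 to 3586 in Ctrl.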

How the data were processed

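RNA was measured in 12 libraries, 3 for each of 4 groups. The deposited values are FPKM made by the authors, and, per the submitters' processing notes, mm10, HTSeq 0.6.1, TopHat2 2.1.0, Trimmomatic 0.33 and edgeR (version not stated) were used. The gene lengths behind the FPKM are not given in the sources used here; those implied by the values were within 1% of the GENCODE M21 exon length for 19.1% of 11744 tested genes, so levels are compared between genes by both. Symbols were found for 32919 of 37991 gene IDs. Whole reads, used only for voom and for depth, were recovered from the steps between FPKM values for all 23707 genes above 0, within 0.001 reads (23702 genes) or 0.05 reads. They summed to between 13975598 and 20208405 per library, where the library sizes estimated with gene lengths were 13977524 to 20209587 reads.

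The 12384 genes that reached 1 FPKM in 3 or more libraries were fitted on log2(FPKM + 1) over the 12 libraries, with group as the term, using R 4.3.3 and limma 3.58.1 (eBayes with a variance trend after lmFit and contrasts.fit; two-sided, Benjamini-Hochberg over all genes tested, threshold 0.05). The fit was tested on simulated data. With groups of 3 an exact permutation test of a single gene cannot reach that threshold. The members and lists were chosen with earlier results of these data known. Named beside the 10 genes were Id2, Tcf7, called members of 16 lists of lineage markers and pathway genes, defining markers, and the 2 tested genes with the highest correlation to each of the 10 over the libraries, predicted genes passed over. The averages over Tcf7 and over Id2, voom with median scaling, and leaving out the 3 libraries of lowest array weight were chosen after seeing the data. Other alternatives were pseudocounts of 0.1 and 0.5, no filter, median scaling, no variance trend, array weights, a replicate block, the compared groups only, voom, and each library left out. The other steps used matplotlib 3.10.9, numpy 2.4.6 and pandas 2.3.3 in Python 3.11.15.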

Additional observations from a re-analysis of the deposited data

How the results depend on the processing

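Of 863 values of the log2 fold change of the 10 genes under alternatives (38 fold changes larger than their SE), 862 kept their direction. The exception was Cd28 in DKO against Ctrl, which was -0.28 without the 3 libraries of lowest array weight and 0.50 with them; the cause was not tested. Of the 10 genes, 0 were called in every comparison as fitted. With single libraries left out, between 0 and 2 were called for DKO against Id2KO and between 0 and 2 for the average over Tcf7, the 2 in each case without Id2KO replicate 3. For the average over Tcf7, 2 were called with array weights (0.719% of all genes), 1 with voom (0.404%), 1 with voom and median scaling (0.436%), and 3 without the 3 libraries of lowest weight (0.396%). Without Id2KO replicate 3 the share of all genes was 0.25% for DKO against Id2KO and 0.557% over Tcf7.

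Counts over all genes moved more. With single libraries left out, limma called 1 to 27 genes for DKO against Ctrl (18 with all), 2 to 31 for DKO against Id2KO (15), 0 to 7 for DKO against Tcf1KO (7), 13 to 27 for Id2KO against Ctrl (22), 0 to 3 for Tcf1KO against Ctrl (0), 0 to 1 for the interaction (0), 5 to 69 for the average over Tcf7 (46) and 13 to 79 for that over Id2 (37). With the compared groups only these counts were 1, 0, 1, 2 and 1 for the first 5. Without the 3 libraries they were 0 for DKO against Ctrl, 2 for DKO against Tcf1KO, 8 for Id2KO against Ctrl, 4 for Tcf1KO against Ctrl and 6 for the average over Id2. With array weights they were 7 for Tcf1KO against Ctrl, 89 over Tcf7 and 85 over Id2. With no filter they were 4 for DKO against Ctrl, 4 for DKO against Tcf1KO, 1 for Tcf1KO against Ctrl, 20 over Tcf7 and 13 over Id2. Voom gave 2 for DKO against Tcf1KO, 2 for Tcf1KO against Ctrl and 71 over Id2, and with median scaling 31 for DKO against Ctrl, 46 for Id2KO against Ctrl, 2 for DKO against Tcf1KO, 3 for Tcf1KO against Ctrl, 1 for the interaction and 79 over Id2. A pseudocount of 0.1 gave 4 for DKO against Tcf1KO, and no variance trend gave 1 for the interaction.

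The deviations from the group means of same-numbered libraries of different groups had correlations of -0.14 to 0.27, not all above 0.1, and the labels tie the numbers to nothing, so these libraries were taken to share only a number. When each library was set by these deviations against the libraries of the other groups, 9 of the 12 were most like one of their own number. This is a hint from the data and not from the design, and it was not tested against the number that unlinked libraries would give. With the replicate number as a block, 0 of the 10 genes were called in every comparison, as without it, while the counts over all genes were 15 for DKO against Tcf1KO and 28 over Tcf7. Depth limits Cd8b1 most, with 2 to 220 reads in a library.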
